A study of Mus musculus with 4 samples.

Results

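The HMGA genes and a set of oncofetal growth genes were examined in mouse podocytes treated with interleukin-12 (IL-12). The set holds 7 of the 54532 genes in the count table, namely Hmga1, Hmga2, Igf2bp1, Igf2bp2, Igf2bp3, Lin28b and Arid3a. It was picked for the strong rise of Hmga2 between the groups, with the other 6 genes listed by name beside it. The difference of Hmga2 is therefore given as a description, with no test. The study sequenced RNA from MPC5 cells, a conditionally immortalised mouse podocyte line. The control group was 2 libraries of MPC5 cells without the cytokine, and the IL-12 treatment group was 2 libraries collected after 6 h with IL-12. No genotype, strain or age is given for the cells, all 4 libraries came from the same line, and no label states if the cells of each library were cultured separately. The p-values below therefore measure only the spread between these libraries.

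HMGA1 and HMGA2 are architectural chromatin proteins that bind the minor groove of AT-rich DNA through AT-hooks and bend it for other factors. Both are abundant in the embryo, low in most adult tissues and high again in many tumours. LIN28B binds the precursors of the let-7 microRNAs and blocks their maturation, and let-7 lowers mRNAs that carry matches to its seed in their 3′ UTR. HMGA2, the IGF2BP proteins (RNA-binding proteins that stabilise and localise their client mRNAs), LIN28B and the AT-rich interaction domain factor ARID3A are known as let-7 targets in fetal and tumour cells. Podocytes are the post-mitotic epithelial cells of the glomerular filter, while cultured podocyte lines can divide.

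The letters of the let-7 match are shown first because these genes are known as let-7 targets. The seed, bases 2 to 8 of the mature microRNA, is in capitals in sequences from RefSeq (GRCm38.p6).
let-7a-5p: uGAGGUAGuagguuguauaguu
let-7d-5p: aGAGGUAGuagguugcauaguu
let-7i-5p: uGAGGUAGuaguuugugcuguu
miR-98-5p: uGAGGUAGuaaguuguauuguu
All 4 carry the same seed, GAGGUAG, which 11 mature mouse microRNAs from 13 loci share in that table. They differ only outside it.

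The matching letters, CTACCTC, were searched for in the longest annotated 3′ UTR of each gene, on the mRNA strand alone. Hmga2 held 4 matches in a 3′ UTR of 3014 bases on chromosome 10, all shown here with the match in capitals because Hmga2 is the gene that the set turns on. The coordinates are GRCm38 on the minus strand, chr10:120364224-120364245, chr10:120362987-120363008, chr10:120362549-120362570 and chr10:120361691-120361712 in that order.
Hmga2 site 1: ccgacattcaatttCTACCTCa
Hmga2 site 2: cccactcctcaataCTACCTCt
Hmga2 site 3: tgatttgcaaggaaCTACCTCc
Hmga2 site 4: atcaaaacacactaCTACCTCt
The first match is followed by an A, the base that an extended match has opposite the first base of the microRNA. The first lies 58 bases into the 3′ UTR and the last 2591 bases into it.

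Hmga1 held 1 match in a 3′ UTR of 1183 bases, at chr17:27563278-27563299 on the plus strand. Igf2bp1 held 4 in 6337 bases, of which the first is shown (chr11:95961778-95961799, minus strand). Igf2bp2 and Igf2bp3 held 1 each, at chr16:22059473-22059494 and chr6:49086787-49086808, both on the minus strand. Lin28b held 4 and Arid3a 2, with the first of each at chr10:45381022-45381043 on the minus strand and chr10:79953896-79953917 on the plus strand. These are shown to set the other genes of the set beside Hmga2.
Hmga1 site: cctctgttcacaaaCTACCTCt
Igf2bp1 site 1: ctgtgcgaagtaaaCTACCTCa
Igf2bp2 site: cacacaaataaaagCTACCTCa
Igf2bp3 site: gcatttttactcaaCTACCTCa
Lin28b site 1: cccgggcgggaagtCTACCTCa
Arid3a site 1: aggcaagtttctttCTACCTCa
All 7 genes thus held at least 1 match. Among the 11767 genes tested that have an annotated 3′ UTR, 10.5% held one, and of those with a 3′ UTR of at least 2000 bases 20.4% did. Genes with 3 or more matches made up 0.187% of those 11767 genes. The genes are known let-7 targets, so the shared match is a description of the set and not a result of the sequencing.

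Each library held 18355379 to 20098012 counts, and 14095 genes passed the filter on low counts. With these totals, 3 counts, the level that a count of 0 allows, stood for 0.152 to 0.166 CPM. CPM is the number of counts per 1000000 in a library after TMM scaling of its total. The podocyte markers were only partly present. Synpo, Actn4, Cd2ap and Tjp1 were abundant, while Nphs1, the slit diaphragm protein nephrin, had 0 or 1 counts in each library and Tcf21 and Ptpro had 0. The summed level of the 12 podocyte markers was 2209 to 2217 CPM in the control group and 2195 to 2217 CPM in the IL-12 treatment group, so the ranges overlapped. Of these 12 markers 3 were called higher, Actn4 and Podxl among them, and 1 lower, Synpo, which had 489.3 and 469.9 CPM in the control group and 301.5 and 306.9 CPM after IL-12. The 5 endothelial markers summed to 0.159 to 0.475 CPM in the control group and 0.387 to 0.556 CPM in the IL-12 treatment group. For the 5 leukocyte markers the sums were 4.909 to 5.987 and 5.004 to 7.186 CPM. The 4 mesangial markers summed to 69.6 to 70.6 CPM in the control group and 71.1 to 81.8 CPM in the IL-12 treatment group. The 5 tubular markers summed to 634.7 to 660.5 and 518.6 to 560.0 CPM, nearly all of it Lrp2. The mesangial and tubular sums did not overlap between the groups, but neither did 62.9% of the single genes tested. The mesangial gap was narrow, and of its markers Pdgfrb was called higher and Gata3 lower. The part of these sums in the results below was not tested. In bulk RNA, fewer cells that express a gene and less of its RNA per cell cannot be told apart.

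Among the chromatin proteins, Hmga2 (ENSMUSG00000056758, GRCm38 chr10:120361275-120476469, minus strand) had 1072 and 1141 counts without the cytokine and 4321 and 3896 counts after it. In CPM it stood at 56.6 and 60.5 in the control group and at 218.4 and 215.4 in the IL-12 treatment group. Both IL-12 libraries lay far above both control libraries, and the libraries of a group lay close together. Hmga2 was 3.71-fold higher after IL-12 (95% interval 3.47 to 3.96), a log2 difference of 1.89 ± 0.05 (SE, n = 2 per group). That difference was the 27th highest of the 14095 genes tested. These are the values that the set was picked on.

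Hmga1 (ENSMUSG00000046711, chr17:27556497-27563674, plus strand), its paralog, was counted 1106 and 1150 times in the control group and 2349 and 2043 times after IL-12. Its level was 58.4 and 60.9 CPM in the control group and 118.7 and 112.9 CPM in the IL-12 treatment group, with no overlap. With 2 libraries per group, 62.9% of all genes tested did not overlap either, so this alone says little. Hmga1 was upregulated 1.94-fold (95% interval 1.81 to 2.09; log2 difference 0.96 ± 0.05 SE; edgeR quasi-likelihood test, Benjamini-Hochberg adjusted p = 7.84e-11). It stayed just under the 2-fold limit and stood 174th among all genes by log2 difference.

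Hmga1b, a gene with a copy of the Hmga1 mRNA, matched it over 1602 bases at 99.8% identity, so reads can be split between them and its own value is uncertain. Hmga1b was counted 142 and 137 times without IL-12 against 240 and 221 times with it. Its log2 difference of 0.72 ± 0.13 (SE) passed the edgeR test (adjusted p = 0.0002). Hmga1b and Hmga1 thus moved in the same direction.

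**Figure D1:**
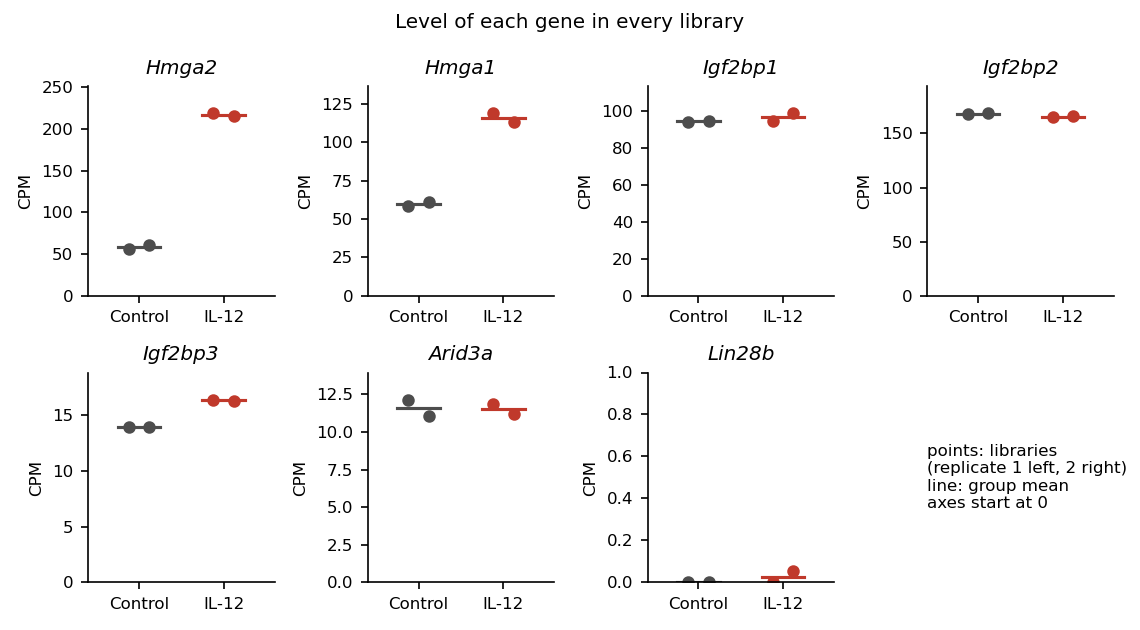
Level of the 7 genes in CPM (linear axes from 0) in each of the 4 libraries, with control in grey and IL-12 in red; lines are group means. Hmga2 and Hmga1 separate the groups widely, from 56.6 to 60.5 against 215.4 to 218.4 CPM and from 58.4 to 60.9 against 112.9 to 118.7 CPM, while Igf2bp1, Igf2bp2, Igf2bp3 and Arid3a stay near their control level and Lin28b is near 0.

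The RNA-binding proteins of the IGF2BP family showed no comparable change. Igf2bp1 (ENSMUSG00000013415, chr11:95957163-96005940, minus strand), which binds Myc and Actb mRNA, had 94.1 and 94.6 CPM in the control group and 94.6 and 98.6 CPM in the IL-12 treatment group. The groups met at 94.6 CPM, and the log2 difference was 0.03 ± 0.05 (SE; edgeR adjusted p = 0.646). Its 95% interval, 0.956 to 1.10-fold, leaves room for at most a small change either way.

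Igf2bp2 (ENSMUSG00000033581, chr16:22059009-22163299, minus strand), the member of the family most often kept in adult tissue, had 167.5 and 168.5 CPM in the control group and 165.0 and 165.9 CPM in the IL-12 treatment group. Both IL-12 libraries were lower by a narrow margin. The log2 difference was -0.02 ± 0.04 (SE; 95% interval -0.10 to 0.06; edgeR adjusted p = 0.726).

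Igf2bp3 (ENSMUSG00000029814, chr6:49085223-49214957, minus strand), the member most restricted to embryo and tumour, was the lowest of the family. It had 264 counts in each control library and 324 and 295 in the IL-12 libraries, or 13.94 and 13.99 CPM against 16.38 and 16.31 CPM. The groups did not overlap, as was so for 62.9% of all genes tested. The log2 difference of 0.23 ± 0.10 (SE; 95% interval 0.02 to 0.44) did not pass the edgeR test after adjustment (adjusted p = 0.101). Malsu1 lies on the opposite strand, shares 1529 bases of transcript with Igf2bp3 and had 1104 counts in all against 1147, and since the strand setting of the counting is not given in the sources used here, reads of the pair cannot be told apart there. Malsu1 itself had 259 and 285 control counts against 299 and 261 after IL-12, which overlapped.

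Lin28b (ENSMUSG00000063804, chr10:45376620-45486395, minus strand), the let-7 blocker, had 0 counts in 3 libraries and 1 count in the second IL-12 library, and was not tested. Lin28b RNA was thus near 0 in every library, and a difference between the groups was not detectable at this depth. Its paralog Lin28a had 0 counts in all 4 libraries.

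Arid3a (ENSMUSG00000019564, chr10:79927043-79955018, plus strand), a transcription factor known from B cell and fetal haematopoietic development, had 12.1 and 11.1 CPM in the control group and 11.9 and 11.2 CPM in the IL-12 treatment group. The groups overlapped. The log2 difference was -0.01 ± 0.12 (SE; 95% interval -0.25 to 0.24; edgeR adjusted p = 0.977).

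Of the 7 genes, 6 were tested, each with at least 203 counts in every library, and Lin28b did not pass the filter. Apart from Hmga2, 1 of the other 5, Hmga1, was called higher at an adjusted p below 0.05 (edgeR) and 0 were called lower. The number lower was also 0 at an unadjusted p below 0.05 (edgeR) and with DESeq2. At that unadjusted limit Igf2bp3 was higher as well. Over all genes tested, 16.1% were called higher and 14.4% lower. With the added limit of a 2-fold change, which Hmga1 did not reach, 1.61% of all genes tested were called (121 higher and 106 lower, 227 in all, or 144 without the first IL-12 library). Because the set was picked on this contrast, nothing is read from these shares. Scaling by total counts alone moved the split of all calls from 52.8% higher to 40.5% higher and the median log2 difference of all genes from -0.0022 to -0.043. Hmga1 stayed called and higher under it.

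**Figure D2:**
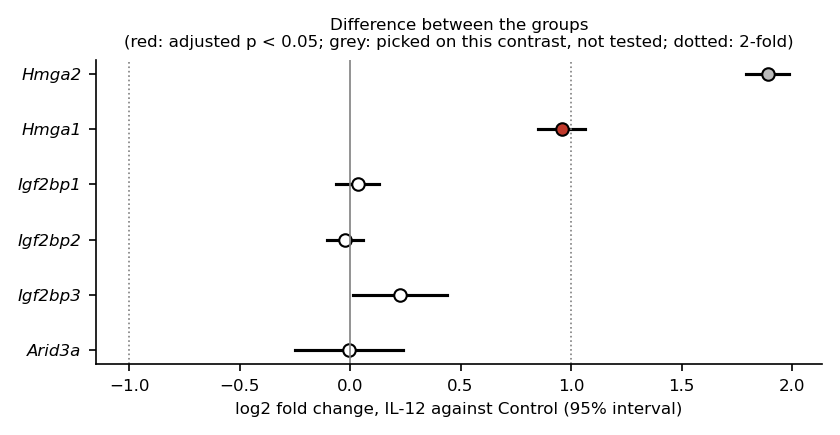
Log2 difference between the IL-12 treatment and control groups for the 6 tested genes, with 95% intervals from the edgeR fit over all genes; dotted lines mark a 2-fold change. Hmga2 (grey, picked on this contrast) lies at 1.89 and Hmga1 at 0.96 with an interval that reaches past the 2-fold line, and the other 4 points (open) lie between -0.02 and 0.23.

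Levels were compared between genes only per length, using the deposited FPKM (fragments per kilobase of gene length, scaled to library size). In the control libraries Hmga1 was highest of the set at 27.5 and 28.7 FPKM, followed by Igf2bp2 at 22.6 and 22.8, Igf2bp1 at 9.71 and 9.78 and Hmga2 at 8.35 and 8.93 FPKM. Arid3a, at 2.18 and 1.99 FPKM, and Igf2bp3, at 1.71 and 1.72 FPKM, were several-fold lower, and Lin28b was last. In the IL-12 libraries Hmga1 was still highest at 55.9 and 53.2 FPKM, and Hmga2 came next at 32.3 and 31.8 FPKM, above Igf2bp2 at 22.3 and 22.4. Igf2bp1 had 9.78 and 10.2 FPKM there. Arid3a at 2.14 and 2.02 and Igf2bp3 at 2.01 and 2 FPKM differed by no more than the spread of Arid3a. Hmga2 moved from the 57.9th to the 87.5th percentile of the FPKM of the genes tested, and Hmga1 from the 85.8th to the 93.4th.

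The share of Hmga2 in the summed FPKM of Hmga1 and Hmga2 was 23.3% and 23.7% before treatment against 36.6% and 37.4% after it. The sum itself was 35.8 and 37.6 FPKM in the control group and 88.21 and 85.02 FPKM in the IL-12 treatment group. The summed FPKM of the 3 IGF2BP genes was 34.0 and 34.3 against 34.1 and 34.6. Igf2bp2 made up 66.5% of that sum in both control libraries, against 65.4% and 64.8% after IL-12. Igf2bp3 made up 5.01% in both control libraries, against 5.89% and 5.78% after IL-12. By FPKM, the HMGA pair and the IGF2BP family were thus near equal in the control group. After IL-12 the HMGA sum was 2.59 and 2.45 times the IGF2BP sum by that measure.

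The order of the genes, and the sums, shares and ratios above, depend on the length that is used. With the longest coding transcript of each gene in place of the deposited gene length, an alternative chosen after seeing the data, Igf2bp2 led the control group at 43.1 CPM per kilobase, before Hmga1 at 29.8, Hmga2 at 15.4 and Igf2bp1 at 11.3. Igf2bp3, at 3.21, then stood above Arid3a, at 2.16. In the IL-12 treatment group Hmga1, at 57.9, and Hmga2, at 56.9 CPM per kilobase, were close to each other, above Igf2bp2 at 42.4. Differences between the groups for a gene do not depend on this choice.

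**Figure D3:**
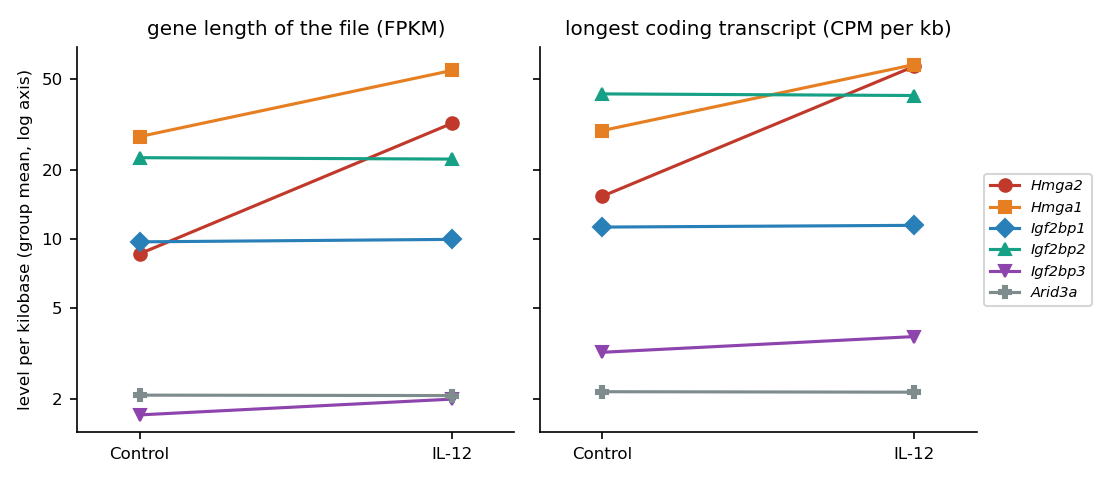
Mean level per kilobase (log axis) of the 6 detected genes in the control and IL-12 treatment groups, with the deposited gene length on the left (FPKM) and the length of the longest coding transcript on the right (CPM per kilobase). Hmga2 crosses Igf2bp1 and Igf2bp2 on the left and Igf2bp2 on the right, ending at 32.1 FPKM and 56.9 CPM per kilobase, while the IGF2BP and Arid3a lines are nearly flat.

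The promoter of Hmga2 is shown because Hmga2 is the member with the largest difference between the groups. It is given as the 250 bases before the RefSeq start (GRCm38.p6, chr10:120476470-120476719, minus strand), with the longest unbroken run of C and T in capitals.
Hmga2 promoter: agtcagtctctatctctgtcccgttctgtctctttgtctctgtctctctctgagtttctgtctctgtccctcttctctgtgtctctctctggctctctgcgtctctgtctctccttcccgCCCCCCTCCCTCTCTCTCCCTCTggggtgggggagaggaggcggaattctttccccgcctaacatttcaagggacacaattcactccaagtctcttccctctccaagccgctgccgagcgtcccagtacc
The run is 23 bases long, and 1.69% of the 27025 promoters in the table hold a run at least as long. The window has 56.4% G and C and 8 CG pairs, against 72.8% and 34 CG pairs for Hmga1, a number that 3.33% of promoters reach. Igf2bp3 had a pyrimidine run of 35 bases, which 0.278% of promoters reach, and Igf2bp2 had 77.2% G and C. The table matched 5 of the 7 genes. The GC box GGGCGG, searched on both strands, occurred 3 times in Hmga1, 2 times in Igf2bp2 and 1 time in Hmga2, and 8907 of the 27025 promoters hold it. The AP-1 letters TGANTCA, the SMAD letters CAGAC, the TATA letters TATAAA and the TEAD letters GGAATG were not found in the window of any of the 5 genes, while 6.85%, 42.2%, 13.0% and 12.6% of promoters hold them. The CCAAT letters, also searched, occurred in Igf2bp3 and Lin28b and not in Hmga1, Hmga2 or Igf2bp2. Hmga1 and Hmga2, the genes that were higher, share the GC box and no other motif of those searched. Igf2bp2, which did not pass the edgeR test, holds the GC box too, so this common motif does not set the higher genes apart.

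The genes whose pattern over the 4 libraries lay closest to Hmga2 were sought among 9495 genes with a mean of at least 10 CPM, by the distance between log2 CPM values centred on each gene's mean. Among those closest was Pmepa1, a membrane adaptor of TGF-β signalling, at a distance of 0.234, with 73.2 and 72.5 CPM in the control group and 232.4 and 231.2 CPM in the IL-12 treatment group. Further ones were Gsto1, a glutathione transferase, at 0.268, Ptgs2, the inducible cyclooxygenase, at 0.300, and Col4a3, a chain of the glomerular basement membrane collagen, at 0.315. These genes had log2 differences of 1.57 to 1.67 between the groups, against 1.89 for Hmga2. Nearness over 4 libraries in 2 groups mostly restates a like difference between the groups, so it is a description only.

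The genes around the set were followed in 7 lists, drawn up with earlier results of these data known, and each is given by its counts beside the shares of all genes called above. In the LIN28 and let-7 machinery, 2 of 19 tested genes rose and 2 fell, with a median log2 difference of -0.03 against -0.0022 over all genes. Xpo5, which exports microRNA precursors, had 125.4 and 117.3 CPM in the control group and 150.9 and 148.8 after IL-12 (log2 difference 0.30 ± 0.04 SE; edgeR adjusted p = 2.93e-05). Hnrnpa1, which binds let-7 precursors, rose by a log2 difference of 0.20. Ago4 fell by 0.74 on the log2 scale, from 4.49 and 4.77 to 2.83 and 2.71 CPM, and Ago1 fell by 0.14. Dicer1, Drosha and Dgcr8, of the core processing machinery, had log2 differences of 0.07, 0.10 and 0.04 with edgeR adjusted p of 0.264, 0.149 and 0.588. Scaling by total counts alone gave 8 calls in this list, and leaving out the first IL-12 library left 2.

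Of the other genes reported as let-7 targets, 10 of 25 tested rose and 5 fell, with a median log2 difference of 0.07. Slc20a1, a phosphate transporter, rose from 99.6 and 96.9 to 158.0 and 150.5 CPM (log2 difference 0.65 ± 0.04 SE; edgeR adjusted p = 2.59e-09). Myc rose from 50.5 and 50.2 to 76.3 and 75.9 CPM, and the cyclin Ccnd1 from 377.7 and 371.1 to 556.3 and 543.5 CPM. The integrin Itgb3 rose by a log2 difference of 1.08, the sole gene of this list past 2-fold, and Cdk6, a partner of cyclin D1, by 0.27. Map3k1, Nr6a1, Bach1 and Insr were among those that fell, by 0.37, 0.49, 0.18 and 0.19 on the log2 scale. Igf1r, a growth factor receptor, had a log2 difference of 0.04 and did not pass (edgeR adjusted p = 0.337).

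The 11767 tested genes with an annotated 3′ UTR were also sorted by their number of seed matches. Genes with 0 matches (10527 genes) were called higher in 18.3% and lower in 16.1%, those with 1 match (1086 genes) in 18.6% and 18.2%, and those with 2 matches (132 genes) in 22.7% and 15.2%. Of the 22 genes with 3 or more, 18.2% were higher and 27.3% lower, with a median log2 difference of -0.13. Hmga2 and Igf2bp1, with 4 matches each, are among these 22 genes and stood at 1.89 and 0.03. Hmga2, on which the set was picked, counts as higher in that share, so nothing is read from it. Nr6a1, a germ cell nuclear factor with 8 matches, fell by 0.49 on the log2 scale. The genes differ in 3′ UTR length along with the number of matches, from a median of 1093 bases with 0 matches to 2188.5 bases with 1. The libraries do not measure mature microRNAs, and the let-7 level of these cells was not analysed here.

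**Figure D4:**
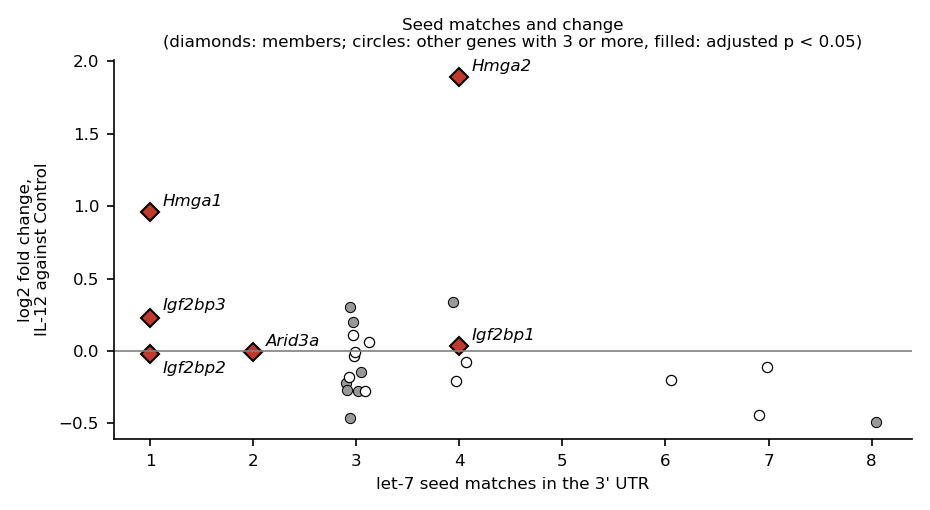
Number of let-7 seed matches in the 3′ UTR against the log2 difference between the IL-12 treatment and control groups, for the 6 tested genes of the set (diamonds) and the other genes with 3 or more matches (circles, filled at an adjusted p below 0.05). With 4 matches each, Hmga2 lies at 1.89 and Igf2bp1 at 0.03, and Nr6a1, with 8 matches, lies at -0.49.

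Other genes of fetal and embryonic growth were followed in a further list. Of 18 listed, 9 were tested, of which 0 rose and 4 fell (edgeR; the number of rises was also 0 at an unadjusted p below 0.05 and with DESeq2), with a median log2 difference of -0.32. That median is the value of Cdkn1c, which had 10 and 25 control counts against 16 and 12 after IL-12 and did not pass (edgeR adjusted p = 0.664). H19, with 11 to 21 counts per library, and Mest, with 5 to 15, did not pass either. Peg3, a paternally expressed zinc finger gene, fell from 985.0 and 943.0 to 610.6 and 654.9 CPM (log2 difference -0.61 ± 0.03 SE; edgeR adjusted p = 1.09e-10). Plagl1, an imprinted zinc finger gene of fetal growth, fell from 19.4 and 19.9 to 8.29 and 11.7 CPM, a log2 difference of -0.98. Igf2r, the receptor that clears IGF2, fell by 0.16 on the log2 scale, and Nr6a1, also in the let-7 list, by 0.49. Igf2, the growth factor that names the IGF2BP family, had 0 counts in all 4 libraries, as did Meg3, while Dlk1, Gpc3, Afp and Sall4 were near or under the level that 3 counts stand for or too low to be tested. Grb10 and Tpbg had log2 differences of 0.04 and 0.01. Without the first IL-12 library 2 genes of the list were called.

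Among relatives of the HMGA and ARID3 proteins, 1 of 16 tested rose and 7 fell, with a median log2 difference of -0.01. Hmga1b, described above, was the one that rose. The genes that fell by the smallest p were Arid1b, a subunit of the BAF chromatin remodeller, from 105.2 and 98.8 to 79.8 and 79.7 CPM, then Arid5b, Arid1a, a BAF subunit like Arid1b, and Arid4b. Their log2 differences were -0.36, -0.29, -0.16 and -0.20. Hmgb1, Hmgb2, Hmgb3 and Hmgn1, the abundant HMG proteins that are unrelated to HMGA in their DNA-binding domain, had log2 differences of 0.12, 0.01, 0.09 and 0.01, none of which passed. Hmgn3, a less abundant HMG gene, was called lower, with a log2 difference of -0.30 (edgeR adjusted p = 0.0377). Hmgn2 followed the replicate number rather than the group, with 6.92 and 8.24 CPM in the first libraries and 27.1 and 27.9 CPM in the second. The calls in this list numbered 4 without the first IL-12 library and 5 without the second.

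Of the partners and reported targets of HMGA proteins, 5 of 15 tested rose and 2 fell, with a median log2 difference of 0.12. Junb, an AP-1 subunit, rose from 67.8 and 74.6 to 96.5 and 93.6 CPM (log2 difference 0.42 ± 0.05 SE; edgeR adjusted p = 6.75e-06). The DNA repair gene Ercc1 rose by a log2 difference of 0.48, Twist1, a mesenchymal transcription factor, by 0.31 and Nfkb1, a subunit of NF-κB, by 0.18. Snai2, a relative of Snai1, rose by 0.66, while Snai1 itself had 3.59 and 2.28 CPM against 4.30 and 3.26 and did not pass. Rb1, the retinoblastoma protein that HMGA2 is known to bind, fell by 0.39 on the log2 scale, and Smad3 fell by 0.24. Ccna2, reported as an HMGA2 target, was at 173.8 and 160.7 CPM against 172.3 and 167.5 CPM, which overlapped.

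Of the mRNAs known to be bound by IGF2BP proteins, 5 of 12 tested rose and 3 fell, with a median log2 difference of -0.02, while the IGF2BP genes themselves did not pass. Ptgs2 rose from 27.8 and 26.5 to 81.8 and 85.3 CPM and the hyaluronan receptor Cd44 from 177.1 and 174.1 to 364.7 and 366.1 CPM, both past 2-fold (edgeR adjusted p = 4.47e-13 and 5.94e-14). Actb rose by a log2 difference of 0.37, and Myc and Ccnd1, which stand in the let-7 list too, by 0.60 and 0.55. Lamb2, a laminin chain of the glomerular basement membrane, fell by 0.37 and Ccnd3 by 0.24 on the log2 scale. Ctnnb1, the β-catenin mRNA, had a log2 difference of 0.06 and did not pass (edgeR adjusted p = 0.126).

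Genes of the cell cycle were expressed in all libraries and shifted little. Of 12 tested, 3 rose and 1 fell, with a median log2 difference of 0.06. Mki67, a marker of dividing cells, had 320.5 and 301.1 CPM in the control group and 278.8 and 285.3 CPM after IL-12 and fell by 0.14 on the log2 scale (edgeR adjusted p = 0.00603). Mcm2, Pcna and Ccne1, which act around DNA replication, rose by log2 differences of 0.13, 0.12 and 0.17. Under scaling by total counts alone 1 of the 12 passed, and 0 did without the first control library or without the first IL-12 library. The largest log2 difference in this list was the 0.17 of Ccne1.

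**Figure D5:**
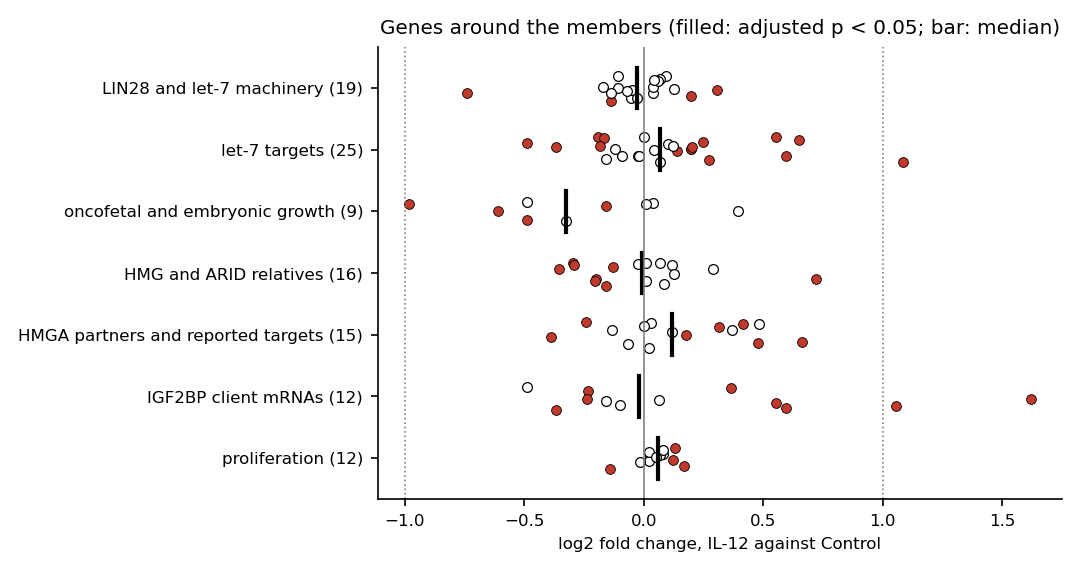
Log2 difference between the IL-12 treatment and control groups for the tested genes of the 7 lists (number tested in brackets; filled at an adjusted p below 0.05 in edgeR; bars are list medians; dotted lines mark a 2-fold change). The medians lie between -0.32 for fetal and embryonic growth and 0.12 for HMGA partners, and the only points past 2-fold are Itgb3, Cd44 and Ptgs2, at 1.08, 1.06 and 1.62. The median of -0.32 is the value of Cdkn1c, which had 10 to 25 counts per library.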

How the data were processed

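MPC5 podocytes were profiled by RNA-seq in 2 control and 2 IL-12 libraries. The authors deposited whole-number read counts per gene and, from the same libraries, FPKM values, which were counts per kilobase of gene length, scaled to library size, times a factor of 0.985 to 1.02 per library. The submitters' processing notes name HISAT2, StringTie and the build mm9, with versions not given. However, 98.3% of the 54409 gene IDs shared with GENCODE M21 had the same coordinates as in GRCm38, all 7 genes among them, so coordinates are GRCm38. Strand setting and the handling of reads with several matches are not given in the sources used here.

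Counts were tested across all 14095 genes left by filterByExpr (minimum count 10, minimum total 15) with TMM scaling and the quasi-likelihood test of edgeR 4.0.16 in R 4.3.3, with Benjamini-Hochberg adjustment. The call was an adjusted p below 0.05, with and without a fold above 2. The genes and lists were chosen with earlier results of these data known. Within each list, up to 4 genes that rose and 4 that fell, by smallest p, were named; others were named for their role after their values were seen. Some genes of the lists are not reported here. No exact permutation test was used, since 2 against 2 libraries allow no p below 0.333. Libraries of a group differed more than sampling noise (chi-square per degree of freedom 2.13 and 2.42). Alternatives were other scalings, no filter, DESeq2 1.42.0, limma 3.58.1 on log2(FPKM + 1) and log2(FPKM + 0.1), the replicate number as a block and each library left out. The code was tested on simulated counts. Copies of Hmga1 were found with BLAST+ 2.17.0. Seed matches used the 3′ UTR of GENCODE M21 and promoters the RefSeq table (GRCm38.p6).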

Additional observations from a re-analysis of the deposited data

How the results depend on the processing

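Hmga1 was called higher in each of its 13 alternatives, with a log2 difference of 0.92 to 0.99 and an adjusted p of at most 0.00109. The log2 difference of Hmga2, on which the set was picked, ran from 1.78 to 1.94 and is given as a description. That of Igf2bp3 ran from 0.15 to 0.23 and its adjusted p from 0.103 to 0.363. Igf2bp1 turned to -0.00696 under total counts only (adjusted p = 0.935 in edgeR), and Arid3a to 0.064 without the first control library and 0.0343 without the second IL-12 library. Its values without 1 library ran from -0.0705 to 0.064. DESeq2 called 107 genes past 2-fold and 2685 at any fold, in place of 227 and 4297, and 2 in the LIN28 and let-7 list, 5 among the HMG and ARID relatives and 2 in the proliferation list. Total counts only gave 8 calls in the LIN28 list and 1 in the proliferation list, and no filter gave 5 among the relatives and 2 in the proliferation list. With 1 library left out, where the lone library is assumed to vary like the others, the calls ran from 144 to 254 past 2-fold, 2528 to 3722 at any fold, 2 to 3 in the LIN28 list, 2 to 3 in the oncofetal list, 4 to 8 among the relatives and 0 to 4 in the proliferation list. The cause was not tested. With the longest coding transcript as length, added after seeing the data, Hmga2 held place 3 instead of 4 in the control group, and its ratio to Hmga1 was 0.515 in place of 0.308 there and 0.984 in place of 0.588 after IL-12. Over all genes, samples with the same replicate number did not deviate together (correlation -0.0297). Single genes did follow the number, with 29 called between the first and the second libraries, Hmgn2 among them. What the replicate numbers stand for was not tested. With the replicate block, 2272 genes were higher and 2069 lower at any fold, 241 passed 2-fold, and the call of Hmga1 and of the 4 genes that did not pass was the same. Depth limits Lin28b, which cannot be compared.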

Other observations

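The deposited table also assigns genes to transcription factor families, and these were looked at after the values had been seen. Of the 15 genes in its ARID family, which holds Arid3a together with the KDM5 histone demethylases, 13 were tested, of which 9 were lower in the IL-12 treatment group (edgeR, adjusted p below 0.05), where 14.4% of all genes tested were lower. The falls were small. Kdm5a was counted 2587 and 2554 times without IL-12 and 2265 and 2162 times with it, a log2 difference of -0.22 ± 0.04 (SE), and Kdm5b and Kdm5c had -0.17 and -0.14. Arid3a, Arid3b and Arid5a did not follow them, with -0.01, -0.03 and 0.29, none of which passed.

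In the cold shock domain family, which holds the 2 Lin28 genes, 3 of 6 tested genes were higher, where 16.1% of all genes tested were. As both families were looked at with their values in view, nothing is read from these shares. Csdc2, an RNA-binding protein, rose from 50 and 43 to 103 and 87 counts (log2 difference 1.03 ± 0.20 SE). Ybx3, a regulator of mRNA stability and translation, rose by a log2 difference of 0.48 and Ybx1, its abundant relative, by 0.14.

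Between the first and the second libraries, whatever the group, 29 genes differed (edgeR, adjusted p below 0.05). None of the 7 genes was among them, and Hmgn2 was the single gene of the 7 lists that was.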
